A study of Mus musculus with 23 samples.

Results

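The 8 genes described here, Ly6a, Clu, Anxa1, Plet1, Anxa3, Ccn1, Ccn2 and Tnfsf10, are known from gut epithelium that repairs itself or returns to a fetal-like state, and they were read in 23 colon RNA-seq libraries of HFD-fed Cdx2Apc f/w mice. The members were chosen by symbol, on a list drawn up with the RNA-seq values of these same libraries in view, and the contrast that put a gene on the list is not recorded. Their levels and fold changes are therefore given as a description. Which of them passed the thresholds of the fit over all genes is stated as a mark of size and spread, with no p and no inference, and p-values are given for other genes only. The lists of other genes were also chosen with earlier results of these data known. Their counts are likewise a description, and their p-values take no account of that choice. All 8 were found among 55449 genes in the table and all 8 passed the filter on low counts in each comparison.

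The mice were male Cdx2Apc f/w animals, in which Cre driven by the Cdx2 promoter deletes a floxed copy of the tumor suppressor Apc, and every group shared that genotype and a diet with 60% of its energy from fat, begun at 6 to 8 weeks of age. They were colonized with B. fragilis (BF) strain 638R, which carried either an empty vector (BF BSHlow) or the bsh gene for bile salt hydrolase (BF BSHhigh), the enzyme that removes the amino acid from conjugated bile acids. Normal colon after 2 weeks was represented by 4 libraries for each strain, non-tumor colon after 12 weeks by 4 libraries for each strain, and colon tumors after 12 weeks by 4 BF BSHlow and 3 BF BSHhigh libraries. No group without B. fragilis and no wild-type mouse is among these libraries, and where nothing says that libraries came from separate mice, error terms measure only the spread between libraries. Library totals lay between 12401388 and 17903008 expected counts. The columns used for the 3 BF BSHhigh tumors are headed with names of BF BSHlow tumors and were assigned as a group through the study's supplementary listing, so every BF BSHhigh tumor value rests on that assignment, and they are called replicates a, b and c.

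After injury, colon epithelium can leave its normal hierarchy of Lgr5-positive stem cells and differentiated cells and take on a repair program that resembles fetal gut. YAP and its partner TAZ, acting with the DNA-binding TEAD factors, switch on part of this program, and CCN1 and CCN2, secreted matrix-associated proteins, are textbook targets of that pair. Ly6a encodes the surface antigen Sca-1, which marks regenerating and fetal-like epithelium, and Clu encodes the secreted chaperone clusterin, a marker of the damage-induced revival stem cell. Anxa1 and Anxa3 encode calcium-dependent membrane-binding annexins, Plet1 encodes a membrane-anchored surface protein first described in placenta, and Tnfsf10 encodes TRAIL, a ligand that triggers apoptosis through death receptors and is induced by interferon.

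The levels below are CPM, that is read counts scaled to a common library size with TMM factors, and a fold change counts as called when the adjusted p of edgeR's quasi-likelihood test was under 0.05 and the absolute log2 fold change over 1. The RNA came from whole tissue, in which fewer cells of a type and less RNA per cell cannot be told apart. The name of the list calls these genes epithelial, and bulk RNA cannot place them in a cell type. Over the 23 libraries the level of Ccn2 went with the summed level of 6 fibroblast markers (r = 0.96), that of Anxa1 likewise (r = 0.91) and that of Clu likewise (r = 0.87), while their r with 7 epithelial markers was −0.72, −0.68 and −0.75. Their r with macrophage markers was 0.91, 0.87 and 0.88 and with endothelial markers 0.90, 0.88 and 0.82, so the values single out no cell type. Plet1 (r = −0.37) and Tnfsf10 (r = −0.52) went the other way with fibroblast markers. These are descriptions over libraries that share groups and depth. The genes are called below by their symbols.

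The stretch of 250 bases before the RefSeq transcription start is shown for Anxa1, Plet1, Ccn1 and Tnfsf10, the members with an entry in the RefSeq promoter table (GRCm38.p6), because the TEAD factors that act with YAP read a short motif in DNA. Capitals mark the TEAD motif (GGAATG or its reverse complement), the AP-1 motif (TGANTCA) and the TATA box (TATAAA), each searched on both strands.
Anxa1, chr19:20390672-20390921, minus strand: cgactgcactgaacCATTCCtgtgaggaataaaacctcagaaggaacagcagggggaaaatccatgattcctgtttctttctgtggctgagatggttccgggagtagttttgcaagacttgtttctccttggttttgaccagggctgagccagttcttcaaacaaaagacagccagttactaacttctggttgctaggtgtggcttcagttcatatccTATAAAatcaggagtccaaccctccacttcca
Plet1, chr9:50494275-50494524, plus strand: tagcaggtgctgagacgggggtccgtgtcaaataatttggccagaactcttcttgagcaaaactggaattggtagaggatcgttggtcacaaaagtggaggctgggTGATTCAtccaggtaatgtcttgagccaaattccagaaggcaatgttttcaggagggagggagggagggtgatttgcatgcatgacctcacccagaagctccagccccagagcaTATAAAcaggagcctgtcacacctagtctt
Ccn1, chr3:145649986-145650235, minus strand: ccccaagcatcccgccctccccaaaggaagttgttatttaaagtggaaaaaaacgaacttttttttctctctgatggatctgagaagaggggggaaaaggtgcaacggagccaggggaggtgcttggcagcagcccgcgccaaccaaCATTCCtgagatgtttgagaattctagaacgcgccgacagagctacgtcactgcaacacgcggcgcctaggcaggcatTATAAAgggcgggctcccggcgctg
Tnfsf10, chr3:27316827-27317076, plus strand: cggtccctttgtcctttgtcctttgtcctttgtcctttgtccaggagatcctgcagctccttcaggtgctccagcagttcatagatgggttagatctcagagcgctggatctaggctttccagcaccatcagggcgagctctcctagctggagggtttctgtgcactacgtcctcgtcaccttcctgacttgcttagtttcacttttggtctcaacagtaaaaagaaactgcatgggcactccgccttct

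The TEAD letters lay 236 bases before the start of Anxa1 and 103 bases before that of Ccn1, and 12.6% of 32851 promoter windows hold them. The AP-1 letters lay 144 bases before the start of Plet1, against 6.75% of windows. A TATA box stood at 32, 30 and 25 bases before the start of Anxa1, Plet1 and Ccn1, against 12.4% of windows. The Tnfsf10 window held none of the 6 motifs searched, which also included TCF (CTTTGA, in 13.8% of windows), the interferon element (GAAANNGAA, in 7.13%) and STAT (TTCNNNGAA, in 7.02%). By the GENCODE gene coordinates given for each member below, the Anxa1 window lies inside the gene and the Tnfsf10 window runs past its start, so for these the RefSeq and GENCODE starts differ. A match is a description of letters and not evidence of a bound site. Only exact letters were searched, so the lack of a match is not evidence that no site is there.

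**Figure D1:**
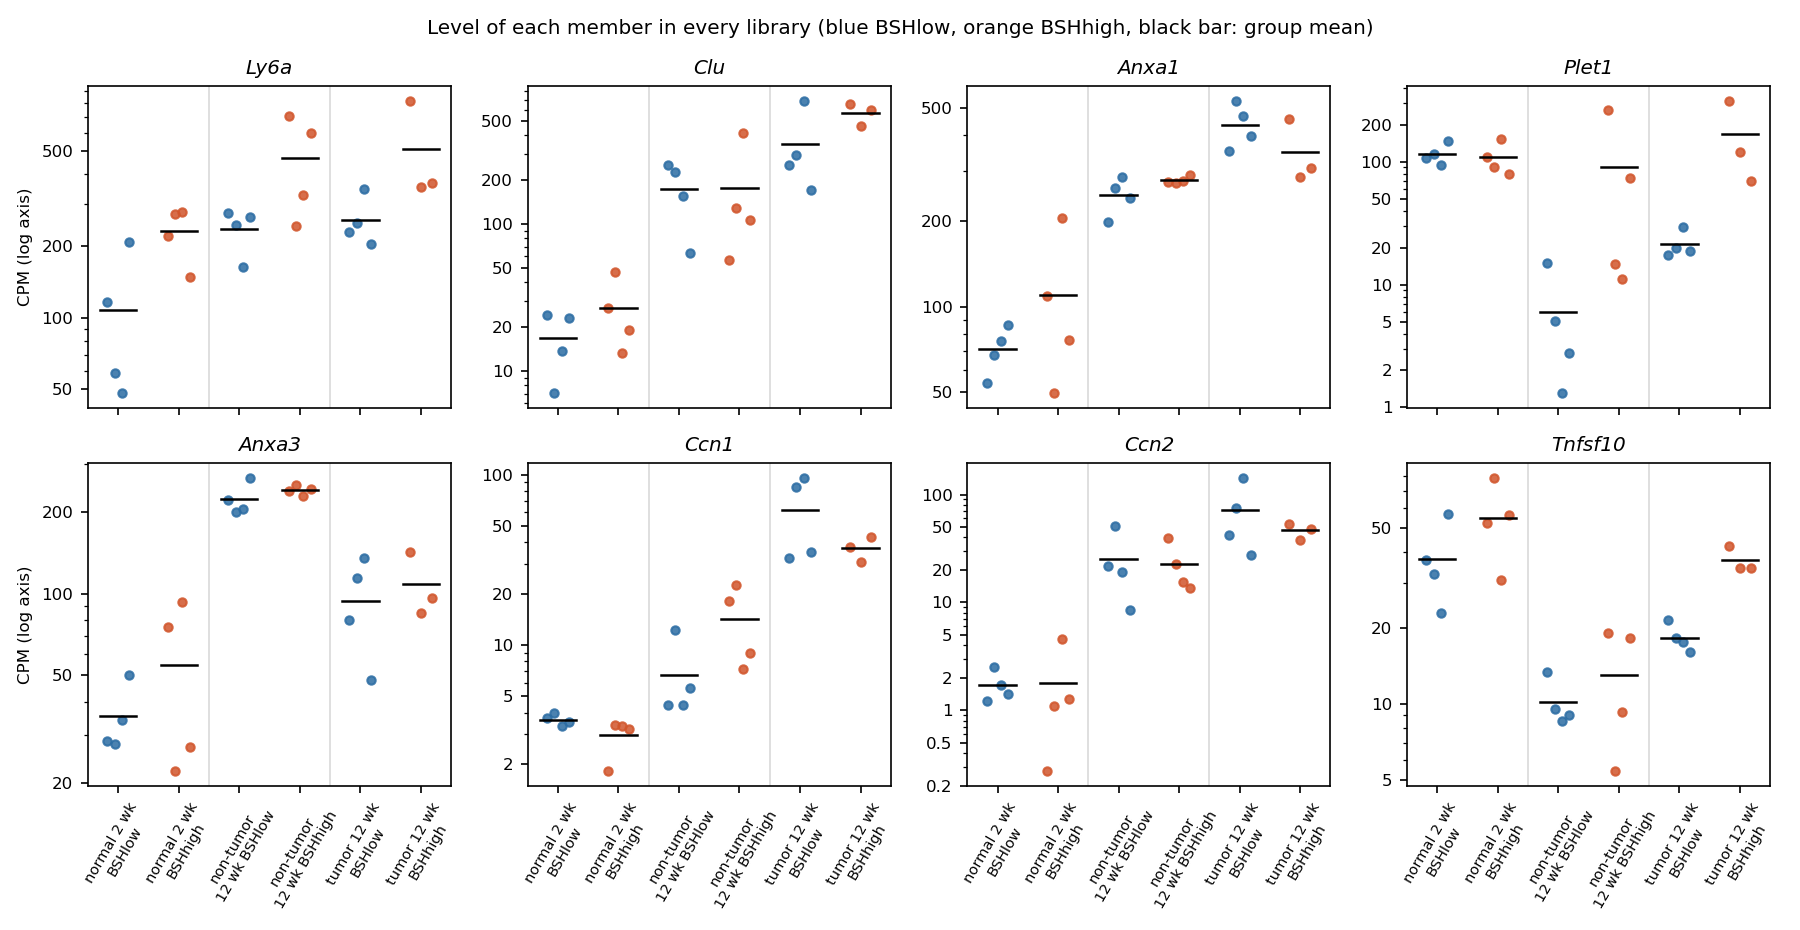
Level of each of the 8 genes in every library, in CPM on a log axis, with blue points for BF BSHlow, orange points for BF BSHhigh and a black bar for the group mean. Clu, Anxa1, Ccn1 and Ccn2 had their highest group means in tumors and Anxa3 in non-tumor colon, while Plet1 was lowest in BF BSHlow non-tumor colon (mean 6 CPM).

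Plet1 had the widest spread within groups of the 8 (SD 1.17 on the log2 CPM scale, against 0.42 to 0.91 for the others). In normal colon after 2 weeks its levels were 108, 116, 93.9 and 147 CPM in BF BSHlow mice and 109, 90.9, 154 and 80.3 CPM in BF BSHhigh mice, and these groups overlapped. In BF BSHlow non-tumor colon after 12 weeks the libraries held 14.9, 5.04, 1.3 and 2.78 CPM, all below every 2-week library. In BF BSHhigh non-tumor colon they held 265, 14.8, 11.1 and 73.9 CPM, so that replicate 1 stood above every normal library and replicates 2 and 3 at the level of the highest BF BSHlow library. In tumors Plet1 was at 17.3, 19.7, 29.2 and 18.8 CPM with BF BSHlow and at 315, 121 and 70.1 CPM with BF BSHhigh, with no overlap. Plet1 lies on chromosome 9 (GRCm38, 50494525 to 50505482, plus strand), where the antisense gene Plet1os overlaps it.

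Plet1 was 7.89-fold higher in BF BSHhigh than in BF BSHlow tumors (log2 fold change 2.98, SE 0.47) and past both thresholds. Without BF BSHhigh replicate a the log2 fold change was 2.16. In non-tumor colon its log2 fold change was 3.93 (SE 1.14), not past the thresholds, and 2.46 without BF BSHhigh replicate 1. After 2 weeks it was −0.11 (SE 0.21). The BF BSHhigh library with the most Plet1 in each 12-week tissue also held the most goblet cell marker RNA of its group. The summed level of 6 goblet markers was 34065 CPM in BF BSHhigh non-tumor replicate 1 against 16526 to 21446 in the other 3, and 4534 CPM in tumor replicate a against 1383 and 614 in replicates b and c. In BF BSHlow tumors that sum was 112 to 161 CPM, and all 6 markers were detected in every group. BF BSHhigh non-tumor replicate 1 and tumor replicate a also held the most smooth muscle marker RNA of their group (4343 and 343 CPM). They likewise held the most absorptive colonocyte marker RNA (2700 and 711 CPM). In BF BSHlow non-tumor colon the goblet sum was 12598 to 17315 CPM, while Plet1 was at 1.3 to 14.9 CPM. Over the 23 libraries Plet1 had r = 0.14 with the goblet sum. The part of these cell types in the Plet1 level was not tested.

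Tnfsf10, the TRAIL gene on chromosome 3 (27317028 to 27342427, plus strand), had a narrow spread in tumors. It was at 21.4, 18.2, 17.6 and 16 CPM in BF BSHlow tumors and at 42.3, 34.5 and 34.4 CPM in BF BSHhigh tumors, again without overlap. The log2 fold change was 1.01 (SE 0.14), which is just over the fold limit of 1, and it ranged from 0.90 to 1.10 when each library was left out. In non-tumor colon the levels were 13.4, 9.57, 8.52 and 9.04 CPM with BF BSHlow and 19.1, 5.42, 9.28 and 18.2 CPM with BF BSHhigh, which overlapped (log2 fold change 0.35, SE 0.37). In normal colon after 2 weeks they were 37.2, 32.8, 23 and 56.8 CPM against 52, 78.5, 31 and 55.8 CPM (log2 fold change 0.52, SE 0.30), so the lowest levels of this gene were those of non-tumor colon after 12 weeks. T cell markers, whose cells can make TRAIL, summed to 2 to 13.7 CPM in BF BSHlow tumors and 23.2 to 34.6 CPM in BF BSHhigh tumors. In non-tumor colon, where Tnfsf10 was lowest, the sum was 6.39 to 29.1 CPM with BF BSHlow and 9.22 to 30.9 CPM with BF BSHhigh. After 2 weeks it was 12.4 to 29.3 CPM and 22 to 46.3 CPM. The part of T cells in the Tnfsf10 level was not tested.

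Ly6a had a similar log2 fold change between BF BSHhigh and BF BSHlow in each tissue, 0.98 (SE 0.32) in tumors, 0.97 (SE 0.33) in non-tumor colon and 1.09 (SE 0.41) in normal colon after 2 weeks, and was past the thresholds in none. Tumors held 230, 251, 349 and 204 CPM with BF BSHlow and 817, 353 and 368 CPM with BF BSHhigh. The groups did not overlap, but 2 of the 3 BF BSHhigh libraries lay close to the highest BF BSHlow library, and without replicate a the log2 fold change was 0.47. Non-tumor colon held 275, 245, 163 and 264 CPM against 705, 242, 329 and 598 CPM, and 2-week colon 117, 58.5, 48.1 and 208 CPM against 221, 273, 279 and 149 CPM. In both, 3 of the 4 BF BSHhigh libraries stood above every BF BSHlow library. Ly6a lies on chromosome 15 (74994877 to 74998031, minus strand) within a family of similar genes, and its expected counts were not whole in 16 libraries, which shows that reads were shared out between it and other genes.

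Clu, on chromosome 14 (65968483 to 65981547, plus strand), was lowest in normal colon after 2 weeks, with 7.01 to 23.8 CPM in BF BSHlow and 13.3 to 47.4 CPM in BF BSHhigh libraries. Non-tumor colon held 250, 224, 156 and 63 CPM with BF BSHlow and 56.7, 129, 413 and 107 CPM with BF BSHhigh, which overlapped throughout. Tumors held 252, 294, 690 and 170 CPM with BF BSHlow and 655, 462 and 599 CPM with BF BSHhigh, and BF BSHlow replicate 3 exceeded every BF BSHhigh tumor. The log2 fold changes between the strains were 0.70 (SE 0.42) in tumors, 0.02 (SE 0.61) in non-tumor colon and 0.65 (SE 0.43) after 2 weeks. No call was made in any of these, and without BF BSHhigh replicate 3 the non-tumor value was −0.84.

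The annexins differed from each other in tumors. Anxa1, on chromosome 19 (20373428 to 20390944, minus strand), was highest there, at 351, 529, 468 and 396 CPM with BF BSHlow and 455, 285 and 308 CPM with BF BSHhigh, against 198 to 285 CPM in BF BSHlow and 271 to 291 CPM in BF BSHhigh non-tumor colon. Anxa3, on chromosome 5 (96793339 to 96845966, plus strand), was highest in non-tumor colon, at 221, 201, 206 and 267 CPM with BF BSHlow and 240, 252, 230 and 243 CPM with BF BSHhigh. It was at 79.7, 114, 136 and 47.9 CPM in BF BSHlow tumors and at 143, 85 and 96.6 CPM in BF BSHhigh tumors, below every non-tumor library. Between the strains, Anxa1 had log2 fold changes of −0.33 (SE 0.20) in tumors, 0.17 (SE 0.11) in non-tumor colon and 0.63 (SE 0.36) after 2 weeks, and Anxa3 had 0.19 (SE 0.33), 0.10 (SE 0.10) and 0.62 (SE 0.43). None of the 6 was called.

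Ccn1 and Ccn2, the YAP and TEAD targets, had the lowest means per kilobase of exon in normal colon after 2 weeks, at 1.8 and 0.597 CPM per kb with BF BSHlow. Ccn1, on chromosome 3 (145646976 to 145649981, minus strand), lay between 1.82 and 4 CPM in all 8 libraries after 2 weeks. It was at 4.45, 12.2, 4.43 and 5.61 CPM in BF BSHlow and 18.2, 22.5, 7.27 and 8.91 CPM in BF BSHhigh non-tumor colon, and at 32.3, 84.4, 95.4 and 34.9 CPM in BF BSHlow and 37.6, 30.5 and 43 CPM in BF BSHhigh tumors. The 2 BF BSHlow tumors at the top, replicates 2 and 3, set the higher mean of that group. Ccn2, on chromosome 10 (24595442 to 24598683, plus strand), lay between 0.273 and 4.53 CPM after 2 weeks. In non-tumor colon it was at 21.6, 50.8, 19 and 8.52 CPM with BF BSHlow and 39.2, 22.5, 15.3 and 13.5 CPM with BF BSHhigh. In tumors it was at 41.9, 74.8, 142 and 27.4 CPM with BF BSHlow and 53.2, 38 and 48.1 CPM with BF BSHhigh, so that every BF BSHhigh tumor lay inside the BF BSHlow range.

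Between the strains the Ccn1 values had opposite signs in the 12-week tissues. The log2 fold change was −0.74 (SE 0.39) in tumors and 1.08 (SE 0.45) in non-tumor colon, and the difference between these was −1.81 (SE 0.65), not past the thresholds. After 2 weeks it was −0.31 (SE 0.25). For Ccn2 the values were −0.62 (SE 0.49) in tumors, −0.15 (SE 0.52) in non-tumor colon and 0.08 (SE 0.64) after 2 weeks. No call was made for either gene. Without BF BSHlow non-tumor replicate 2 the non-tumor value of Ccn2 was 0.47, and without BF BSHhigh 2-week replicate 3 the 2-week value was −0.92.

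Per kilobase of exon, the levels of the 8 genes can be set beside each other. In BF BSHlow tumors the order of the means was Ly6a (214 CPM per kb), Anxa1 (150), Clu (102), Ccn1 (30.6), Anxa3 (25.9), Ccn2 (25), Plet1 (10.9) and Tnfsf10 (3.48). In BF BSHhigh tumors Ly6a, Clu and Anxa1 again led, with 426, 166 and 120 CPM per kb, and Plet1 came next with 86.7 CPM per kb. Anxa1 in BF BSHhigh non-tumor colon had the smallest relative spread of any group, with a coefficient of variation of 3.25%, and Plet1 there the largest, 131%.

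Over the whole set, 2 of the 8 genes, Plet1 and Tnfsf10, were called between BF BSHhigh and BF BSHlow tumors, both higher, against 0.476% of all 15325 genes tested and 0.463% called higher. The median log2 fold change of the 8 was 0.44, against −0.03 over all genes. The groups did not overlap for 3 members, Ly6a, Plet1 and Tnfsf10, against 12.1% of all genes. The number called was 0 when any of 6 of the 7 libraries was left out, and it stayed at 2 only without BF BSHhigh replicate c. Since these values may have chosen the members, nothing is read from the counts.

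Between the strains in non-tumor colon 0 of the 8 were called by edgeR, against 0.00% of 14934 genes, where 1378 genes had an unadjusted p under 0.05, DESeq2 called 59 genes and limma-voom 0. DESeq2 called 1 of the 8, Plet1. The members' median was 0.26, and the groups overlapped for all 8 (5.14% of genes did not overlap). After 2 weeks edgeR called 0 of the 8 and 1 of 13753 genes (0.00727%), with 935 at an unadjusted p under 0.05, 27 called by DESeq2 and 1 by limma-voom. The members' median was 0.57 and again all 8 overlapped (3.38% of genes did not).

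The difference of the BSHhigh effect between tumor and non-tumor colon was past the thresholds for 0 of the 8 by edgeR, against 0.978% of 16455 genes. Of all genes, 1580 had an unadjusted p under 0.05, DESeq2 called 386 and limma-voom 0. DESeq2 and limma-voom also called 0 of the 8. The members' differences ran from −1.81 for Ccn1 to 0.68 for Clu with a median of −0.23.

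**Figure D2:**
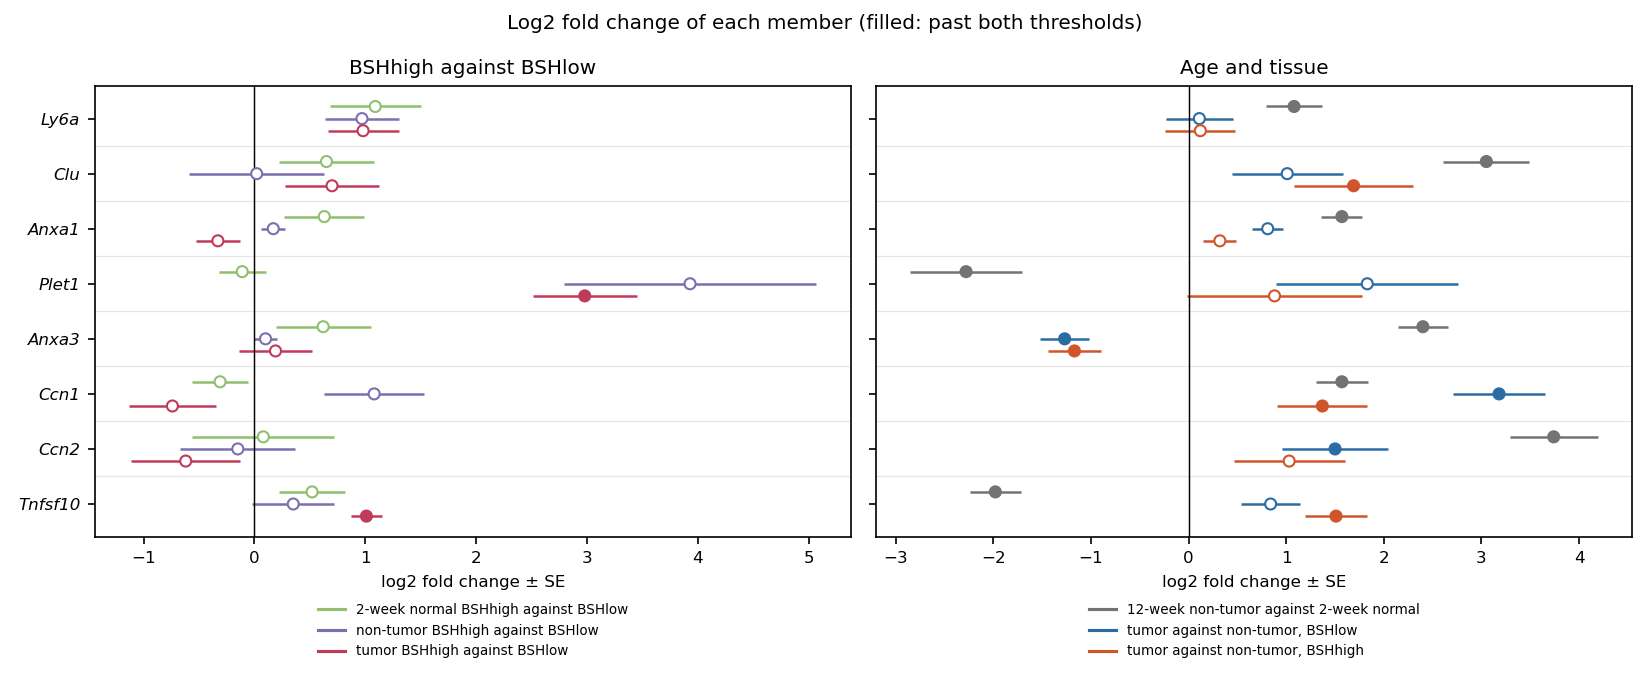
Log2 fold change of each gene with its standard error, on the left between BF BSHhigh and BF BSHlow in each tissue and on the right between ages and tissues, with filled points past both thresholds. On the left Plet1 (2.98) and Tnfsf10 (1.01) in tumors are filled, and on the right all 8 genes are filled for 12-week non-tumor against 2-week normal colon.

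Tumors and non-tumor colon of the same strain were compared next. These comparisons use the same 12-week libraries as those between the strains. In BF BSHlow mice Ccn1 was 9.05-fold higher in tumors (log2 fold change 3.18, SE 0.47) and Ccn2 was 2.83-fold higher (SE 0.54 on the log2 scale), while Anxa3 was 2.41-fold lower (−1.27, SE 0.25). These 3 of the 8 were called, 2 higher and 1 lower, against 36.2% of all 16455 genes, 16.7% higher and 19.5% lower. With library sizes in place of TMM factors the median of all genes moved from 0.04 to 0.37 with BF BSHlow and to 0.34 with BF BSHhigh, and the share of called genes that were higher moved from 46.2% to 61.4% and from 49.6% to 66.2%, while no called member changed sign. Anxa1 had a log2 fold change of 0.81 (SE 0.16), under the fold limit, and Plet1, Clu and Tnfsf10 had 1.83 (SE 0.93), 1.01 (SE 0.57) and 0.84 (SE 0.30). Ly6a was at 0.11 (SE 0.34). Plet1 was called without BF BSHlow non-tumor replicate 1 (2.76) and without BF BSHhigh non-tumor replicate 1 (1.82). The groups did not overlap for 5 members, against 56.3% of all genes.

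In BF BSHhigh mice 4 of the 8 were called, 3 higher and 1 lower, against 29.4% of all genes, 14.6% higher and 14.8% lower. Clu was 3.22-fold higher in tumors (log2 fold change 1.69, SE 0.61), Tnfsf10 2.85-fold (1.51, SE 0.32) and Ccn1 2.58-fold (1.37, SE 0.46), and Anxa3 was 2.24-fold lower (−1.17, SE 0.27). Ccn2 had 1.03 (SE 0.57), Plet1 0.88 (SE 0.90), Anxa1 0.32 (SE 0.17) and Ly6a 0.12 (SE 0.36). For Plet1 the value was 2.34, and called, without non-tumor replicate 1, and 0.07 without tumor replicate a. The groups did not overlap for 4 members, against 60.4% of all genes.

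The calls on Ccn2, Clu and Ccn1 depended on the libraries kept. Ccn2 in BF BSHlow mice was called in 11 of 15 fits that left out 1 library, with log2 fold changes from 0.91 without tumor replicate 3 to 2.10 without non-tumor replicate 2. It also fell under the threshold without non-tumor replicates 1, 3 or 4 (1.44, 1.39 and 1.22). Clu in BF BSHhigh mice was called in 10 of 15 (not without non-tumor replicates 1, 2 or 4 or tumor replicates a or c), with 1.39 to 2.54, the latter without non-tumor replicate 3. Ccn1 in BF BSHhigh mice was called in 12 of 15, with 1.15 to 1.68, and not without non-tumor replicates 3 or 4 or tumor replicate c. Anxa3 was called in all 15 for each strain.

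The tissue samples themselves differed in makeup. Smooth muscle markers summed to 1513 to 8473 CPM in non-tumor colon and 117 to 343 CPM in tumors. All 6 were called lower in BF BSHlow and in BF BSHhigh tumors, against 19.5% and 14.8% of all genes. Absorptive colonocyte markers summed to 1736 to 4509 CPM in non-tumor colon, to 59.3 to 141 CPM in BF BSHlow tumors and to 148 to 711 CPM in BF BSHhigh tumors. Squamous epithelium markers summed to 73 to 174 CPM in BF BSHlow and 34.3 to 52.4 CPM in BF BSHhigh tumors, where Krtdap and Krt5, respectively, were at 0 in every library, against 1.48 to 3.46 CPM in non-tumor colon. Epithelial markers as a whole summed to 4802 to 8537 CPM in tumors and 9786 to 13154 CPM in non-tumor colon. How far these shares set the levels of the 8 genes was not tested.

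**Figure D3:**
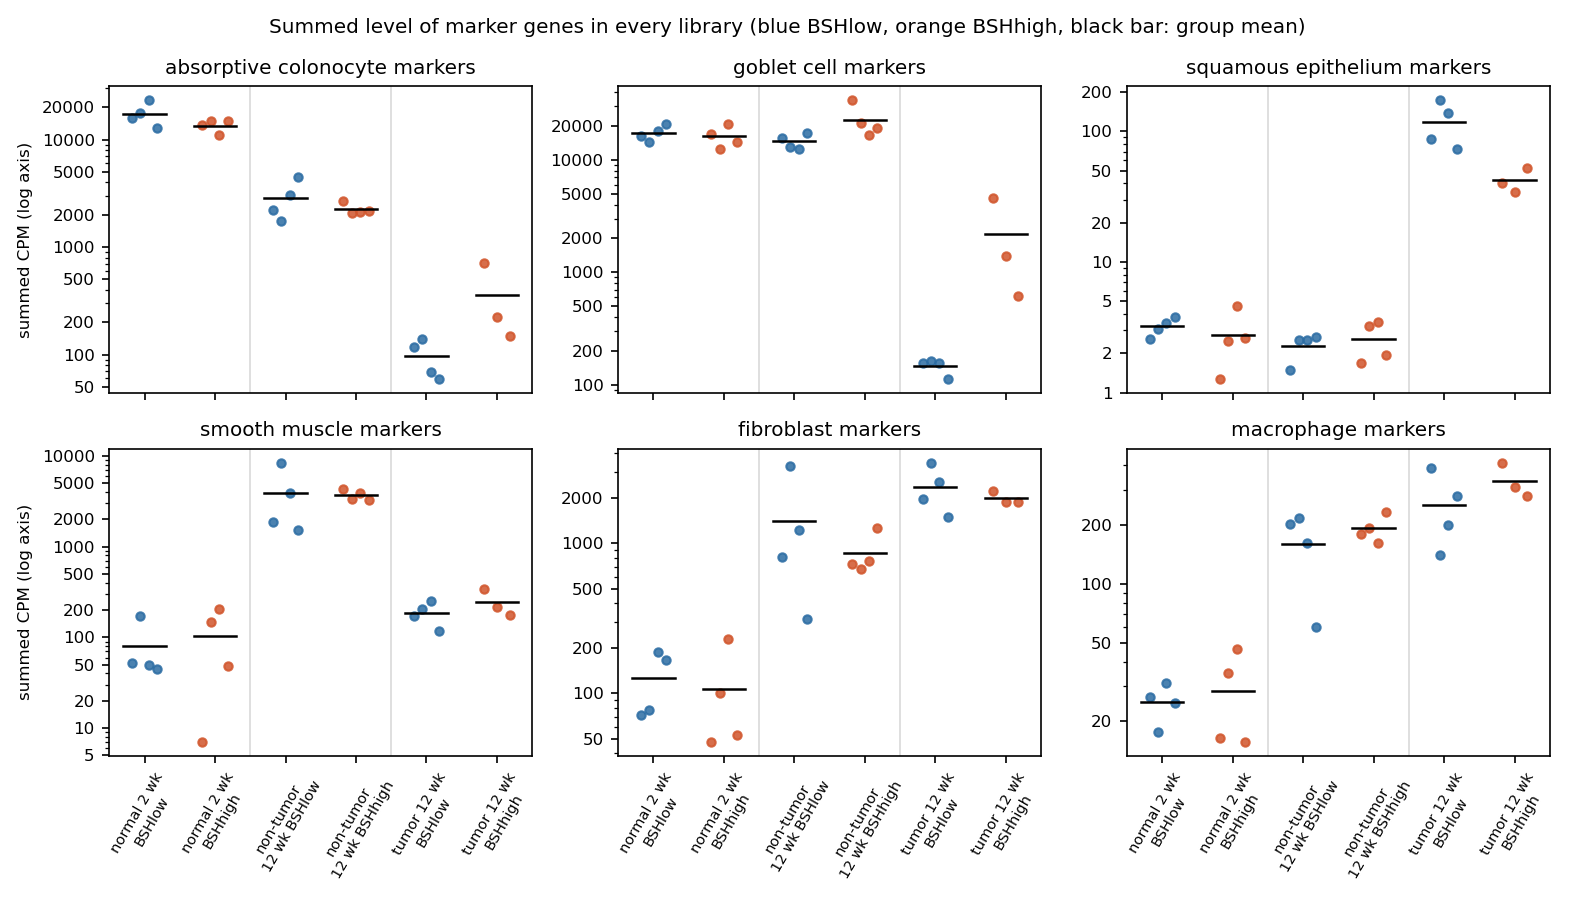
Summed level of the markers of 6 cell types in every library, in CPM on a log axis, with blue points for BF BSHlow, orange points for BF BSHhigh and a black bar for the group mean. Smooth muscle markers lie at 1513 to 8473 CPM in non-tumor colon and at 7.09 to 343 CPM in all other libraries, and goblet markers are lowest in BF BSHlow tumors.

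Among 20 further genes of the regenerative and fetal-like program, which are no members and include Anxa2, Anxa5 and Il1rn, 14 rose in BF BSHlow tumors against non-tumor colon and 12 in BF BSHhigh tumors, and none fell. The share of all genes called higher was 16.7% and 14.6%. The list's median log2 fold change was 2.32 and 1.58, against 0.04 over all genes for each strain. Like the lists below, this list was chosen with earlier results of these data known, so these counts are a description. Spp1, which encodes the secreted matrix protein osteopontin, rose by 6.47 (SE 0.67, adjusted p = 1.38e-06, edgeR) with BF BSHlow and 5.98 (SE 0.66, adjusted p = 5.94e-06) with BF BSHhigh. Basp1 rose by 4.14 (SE 0.29, adjusted p = 4.4e-08) with BF BSHlow and the tight junction gene Cldn4 by 3.63 (SE 0.39, adjusted p = 4.36e-06) with BF BSHhigh.

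The same 20 genes were not called between the strains in tumors: edgeR called 0, 7 had an unadjusted p under 0.05, DESeq2 called 2 and limma-voom 0. Of all 15325 genes, 1946 had an unadjusted p under 0.05, DESeq2 called 534 and limma-voom 41, and 45.5% had a positive value. Of the 20, 2 had a positive log2 fold change, Areg and Il1rn, and the median was −0.34. The mesothelin gene Msln was at −1.47 (SE 0.46). The median of the list differed in sign from that of the 8 members, 0.44, and the difference between the lists was not tested. Since this comparison may have chosen the members, nothing is read from that contrast.

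Of 20 other YAP and TEAD targets, 5 rose and 2 fell in BF BSHlow tumors, and 4 rose and 2 fell in BF BSHhigh tumors. Of all genes, 36.2% and 29.4% were called in either direction there, and 16.7% and 14.6% were called higher. The calls on the 20 targets were near the share of all genes called in either direction. Ajuba, which encodes a LIM-domain adaptor that restrains the Hippo kinases, rose by 4.29 (SE 0.25, adjusted p = 1.47e-08) and 3.44 (SE 0.24, adjusted p = 2.26e-07), and Nt5e, which encodes the ectonucleotidase CD73, fell by 2.49 (SE 0.28, adjusted p = 3.25e-06) and 1.12 (SE 0.30, adjusted p = 0.00545). Of 14 genes of the YAP pathway itself, 5 and 4 rose and none fell, led by Tead2, a TEAD factor, by 4.21 (SE 0.23, adjusted p = 1.29e-08) and 3.90 (SE 0.24, adjusted p = 7.82e-08). The list also held Wwtr1, the TAZ gene, which rose by 1.88 (SE 0.23, adjusted p = 6.94e-06) with BF BSHlow and also passed with BF BSHhigh (adjusted p = 0.000136). Between the strains in tumors edgeR called none of these 34 genes, against 5 targets and 2 pathway genes at an unadjusted p under 0.05. Of all 15325 genes, 1946 had such a p there. DESeq2 called 1 target and limma-voom none.

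Of the other CCN genes, Ccn4 rose in tumors by 2.90 (SE 0.40, adjusted p = 2.15e-05) with BF BSHlow and 2.09 (SE 0.41, adjusted p = 0.000618) with BF BSHhigh, while Ccn3 fell by 5.63 (SE 0.91, adjusted p = 8.52e-05) with BF BSHlow and also fell with BF BSHhigh (adjusted p = 0.000927). Ccn3 had a mean of 29.8 CPM in BF BSHlow and 201 CPM in BF BSHhigh non-tumor colon, and of 0.596 ± 0.402 CPM (SD, n = 4) and 12.7 ± 17.1 CPM (SD, n = 3) in tumors. Its log2 fold change between the strains was 4.38 (SE 1.03, adjusted p = 0.106) in tumors and 2.74 (SE 0.45, adjusted p = 0.208) in non-tumor colon, not called by edgeR in either.

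Of 10 genes of the TRAIL pathway, 4 rose in tumors with BF BSHlow and 3 with BF BSHhigh, all of them receptors. The share of all genes called higher was 16.7% and 14.6%. Tnfrsf11b, which encodes the soluble decoy receptor osteoprotegerin, rose by 5.56 (SE 0.45, adjusted p = 1.42e-07) and 5.30 (SE 0.45, adjusted p = 8.23e-07), from a mean of 6.45 and 5.3 CPM to 313 and 209 CPM. The decoy receptor gene Tnfrsf23 rose by 3.27 (SE 0.35, adjusted p = 2.11e-06) and 2.27 (SE 0.35, adjusted p = 9.05e-05). Tnfrsf10b, the mouse death receptor for TRAIL, had means of 8.07 CPM in BF BSHlow non-tumor colon and 19.2 CPM in BF BSHlow tumors. With BF BSHhigh its means were 8.88 CPM in non-tumor colon and 15.9 CPM in tumors. The caspase gene Casp8, downstream of the receptor, lay between 77.5 and 100 CPM in every group mean.

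TRAIL is also an interferon-induced gene. The 12 interferon-response genes of a fixed list all had positive log2 fold changes between BF BSHhigh and BF BSHlow in each tissue, with medians of 1.39 in tumors, 0.71 in non-tumor colon and 1.18 after 2 weeks. EdgeR called 0 of the 12 in each, with 9, 10 and 9 at an unadjusted p under 0.05, DESeq2 called 5, 2 and 3, and limma-voom 0. Of all 15325, 14934 and 13753 genes tested, 45.5%, 47.2% and 49.5% had positive values. An unadjusted p under 0.05 was found for 1946, 1378 and 935 of them, and DESeq2 called 534, 59 and 27 genes. The list was chosen with earlier results known, so nothing is read from its counts. The largest values in tumors were those of Gbp2, which encodes a guanylate-binding protein, at 2.51 (SE 0.97, adjusted p = 0.324), and Ifit1, at 1.95 (SE 0.65, adjusted p = 0.251), and neither passed the threshold. Against non-tumor colon, 1 of the 12 rose and 3 fell in BF BSHlow tumors, and 1 rose and 1 fell in BF BSHhigh tumors. Of all genes, 36.2% and 29.4% were called there. The medians of the 12 were −0.43 and 0.15, while Tnfsf10 was at 0.84 and 1.51. The part of interferon in the Tnfsf10 level was not tested.

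Ly6g, a neighbour of Ly6a that marks neutrophils, was called in tumors between the strains (2.85, SE 0.35, adjusted p = 0.0343), with means of 6.54 ± 0.834 CPM (SD, n = 4) in BF BSHlow and 47.6 ± 26.7 CPM (SD, n = 3) in BF BSHhigh tumors, and of 165 and 222 CPM in non-tumor colon. The other 5 neutrophil markers were not called between the strains in tumors, with values from −0.01 (SE 0.54) for Csf3r to 1.24 (SE 0.71) for S100a8. Against non-tumor colon Ly6g fell in BF BSHlow tumors by 4.68 (SE 0.29, adjusted p = 2.24e-08), whereas the other 5 markers rose, by 3.09 to 5.12. Ly6e, which encodes an interferon-induced relative, rose in tumors by 1.78 (SE 0.16, adjusted p = 4.28e-07) and 1.35 (SE 0.17, adjusted p = 1.6e-05). Of 10 other annexins, 4 rose and 2 fell in BF BSHlow tumors and 3 rose and 2 fell in BF BSHhigh tumors, against 36.2% and 29.4% of all genes called. Anxa6 was at 2.10 (SE 0.26, adjusted p = 7.36e-06) and 1.81 (SE 0.27, adjusted p = 7.27e-05) and Anxa13 at −2.53 (SE 0.25, adjusted p = 1.04e-06) and −1.69 (SE 0.27, adjusted p = 0.00013). Of the receptor genes for annexin A1, Fpr2 rose in BF BSHlow tumors by 3.25 (SE 0.69, adjusted p = 0.000876) and in BF BSHhigh tumors by 2.97 (SE 0.65, adjusted p = 0.00141), and Fpr3 had no count in any library.

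A list of 10 crypt stem cell genes also held targets of WNT signaling such as Notum and Sp5. Of the 10, 9 rose and 1 fell in tumors of each strain, against 36.2% and 29.4% of all genes called. The rise was led by Notum, a secreted WNT inhibitor, by 7.14 (SE 0.83, adjusted p = 3.98e-06) and 7.92 (SE 0.90, adjusted p = 7.26e-06). The gene that fell, Lrig1, marks a slower-cycling crypt cell (−1.58, SE 0.38, adjusted p = 0.002, and −1.11, SE 0.41, adjusted p = 0.0311).

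Non-tumor colon after 12 weeks was set against normal colon after 2 weeks over both strains, with 8 libraries on each side. All 8 genes were called, 6 higher and 2 lower, against 26.5% of 15533 genes, 18.5% higher and 8.02% lower, and the median log2 fold change was 1.57 against 0.01 over all genes. Ccn2 was 13.4-fold higher (3.74, SE 0.45), Clu 8.27-fold (3.05, SE 0.44), Anxa3 5.29-fold (2.40, SE 0.26), Ccn1 2.97-fold (1.57, SE 0.27), Anxa1 2.96-fold (1.57, SE 0.21) and Ly6a 2.11-fold (1.08, SE 0.29). Plet1 was 4.84-fold lower (−2.28, SE 0.57) and Tnfsf10 3.95-fold lower (−1.98, SE 0.26). The groups did not overlap for 5 members, Clu, Anxa3, Ccn1, Ccn2 and Tnfsf10, against 24.0% of genes. Since these values, too, may have chosen the members, nothing is read from the counts.

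Plet1 differed in size between the strains here, but the difference was not called. Its log2 fold change was −4.30 (SE 0.89) in BF BSHlow and −0.25 (SE 0.75) in BF BSHhigh mice, a difference of 4.05 (SE 1.14), and over both strains it was −3.02 without BF BSHhigh non-tumor replicate 1. Ccn1 was at 0.87 (SE 0.38) and 2.27 (SE 0.39), again not called as different. The fit by strain was added after seeing the data. Ly6a lost its call in 4 of 16 fits that left out 1 library, namely BF BSHhigh non-tumor replicate 1 (0.93), BF BSHlow 2-week replicates 2 (0.97) and 3 (0.95) and BF BSHhigh 2-week replicate 4 (0.99). The other 7 kept their calls in all 16.

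Markers of other cell types moved with this comparison, and their part in the members' levels was not tested. Smooth muscle markers summed to 7.09 to 206 CPM after 2 weeks and to 1513 to 8473 CPM after 12 weeks, and fibroblast markers to 47.7 to 230 CPM and to 314 to 3260 CPM. Neutrophil markers summed to 2.25 to 69.3 CPM and to 144 to 382 CPM. Ly6g alone had means of 165 and 222 CPM in BF BSHlow and BF BSHhigh non-tumor colon, so it makes up most of the 12-week sum. Absorptive colonocyte markers summed to 10930 to 23369 CPM and to 1736 to 4509 CPM. Only 2 of these 6 were called lower and 2 had a positive change, with a median log2 fold change of −0.14. Car1, at a mean of 4390 CPM over the 23 libraries, weighs most in that sum. Over the 23 libraries the absorptive sum had r = −0.92 with Ccn1, and the neutrophil sum r = 0.84 with Anxa1. All 6 markers each of smooth muscle, fibroblast, endothelium and macrophage were called higher after 12 weeks, against 18.5% of all genes. Time, age, any batch difference between the times and the tissue layers in the sample cannot be told apart here. Of the other regenerative genes 6 of 19 rose, led by Spp1 (3.67, SE 0.83, adjusted p = 0.00124), and Emp1 fell by 4.31 (SE 0.26, adjusted p = 4.08e-09). Of 20 other YAP and TEAD targets 12 rose and 1 fell, against 18.5% of all genes called higher and 8.02% lower. Of 12 interferon-response genes 8 fell, against 8.02% of all genes called lower, led by Ifit1 (−3.42, SE 0.37, adjusted p = 1.45e-06), and none rose.

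The 8 genes did not move as 1 block across the libraries. Over all 23, Anxa1 and Ccn2 had r = 0.90, Ccn1 and Ccn2 r = 0.88 and Clu and Ccn2 r = 0.84, whereas Anxa3 and Tnfsf10 had r = −0.75. After each group's mean was subtracted, Anxa1 with Anxa3 (r = 0.81), Ccn1 with Ccn2 (r = 0.70) and Plet1 with Tnfsf10 (r = 0.59) still went together. Clu with Ccn2 did not (r = 0.03). Ly6a went with Tnfsf10 (r = 0.67) and with Plet1 (r = 0.66) only after that subtraction, against −0.07 and 0.11 over all 23 libraries. These values describe libraries that share groups, and no test was made on them.

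**Figure D4:**
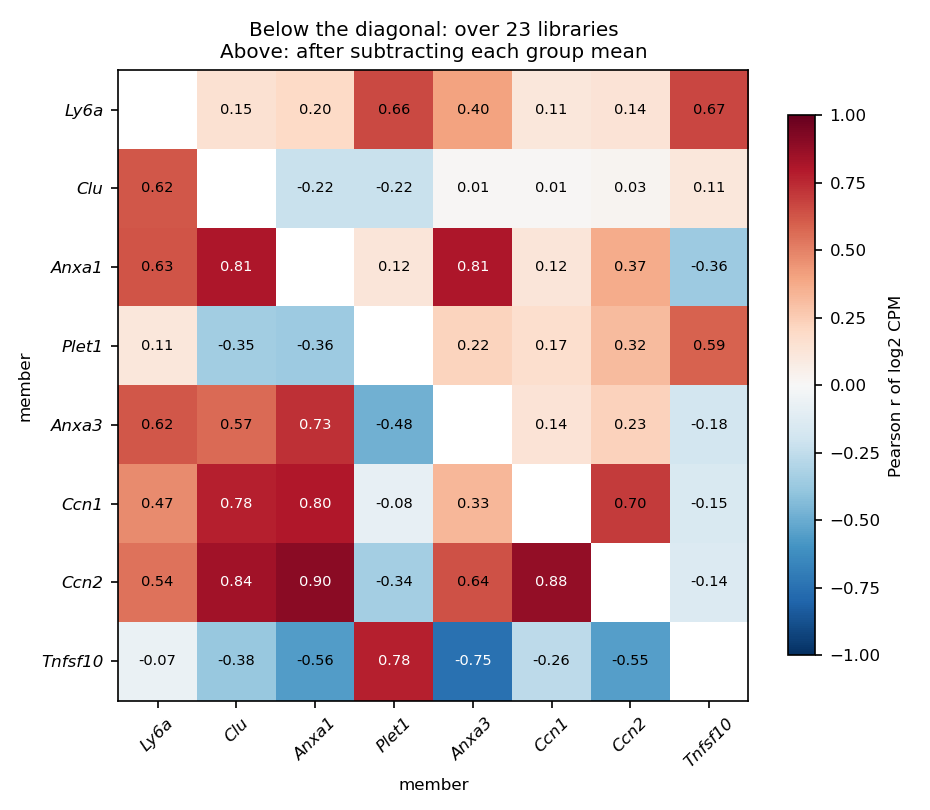
Pearson r of log2 CPM between each pair of the 8 genes, below the diagonal over 23 libraries and above it after subtraction of each group mean, on a color scale from −1 to 1. Ly6a, Plet1 and Tnfsf10 have 0.59 to 0.67 with each other above the diagonal, whereas below it Ly6a has 0.11 with Plet1 and −0.07 with Tnfsf10.

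The genes most alike to each member over the 23 libraries, out of 14391 compared, were named by the highest Pearson r of log2 CPM. They were Smpdl3b (r = 0.85) and Duoxa2 (0.81) for Ly6a, Ly6d (0.97) and Sulf1 (0.96) for Clu, and Clic4 (0.97) and Capn2 (0.96) for Anxa1. For Plet1 they were Ceacam12 (0.84) and Sptssb (0.81), and for Anxa3 Ano1 (0.98) and Il1rn (0.96). For Ccn1 they were Cfap69 and Fhl3 (both 0.95), for Ccn2 Mcam and Olfml2b (both 0.97), and for Tnfsf10 the interferon-induced GTPase gene Ifi47 (0.90) and Ncln (0.88). Ly6a and Plet1 had the weakest partners and Anxa3 the closest.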

How the data were processed

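Per the labels and the study's methods, Cutadapt removed adapters, STAR mapped reads to mm10, Picard gave quality statistics and RSEM estimated gene abundance; versions are not given in the sources used here. The values the authors deposited are RSEM expected counts, without normalization. The libraries are described as stranded. Of the values, 4.24% were not whole, and they were rounded for the tests. Columns 14 to 16 of the deposited table repeat names of BF BSHlow tumors and were taken as the BF BSHhigh tumors, because the study's own listing gives their values under that heading. A row with text in a cell (1) and a row with no gene name were left out. GENCODE M21 gave the coordinates (GRCm38).

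CPM used TMM factors from edgeR 4.0.16 over all 23 libraries (R 4.3.3), and log2 CPM a prior count of 2. The tests were edgeR's quasi-likelihood tests after filterByExpr, with Benjamini-Hochberg adjustment over all genes: the groups compared for BSHhigh against BSHlow, the 15 libraries of 12 weeks for tumor against non-tumor, and 16 libraries for age. DESeq2 1.42.0 and limma-voom (limma 3.58.1) were alternatives. The fitting was tested on simulated data. No library pair of a group agreed within counting noise (33 pairs, chi-square per degree of freedom at least 16.6).

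The members, the lists and the rule for named genes were chosen with earlier results of these data known. Named were all members, the 2 genes most alike to each, and up to 3 called genes of each list per direction with a mean of at least 1 CPM, or where none was called the 2 with the largest change. Means of receptors and relatives are given as levels. Areg, Il1rn, Tnfrsf10b and Casp8 were named after their values were seen. A gene that the rule would name is not reported here.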

Additional observations from a re-analysis of the deposited data

Results flagged for a closer look

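Of 40 groups of 4 libraries looked at over the 8 members, 2 held a library far from the others, by Dixon's criterion, and chance flags about 1 in 20. Both concerned Ccn1. BF BSHlow non-tumor replicate 2 was at 12.2 CPM, with a gap over range of 0.848, and BF BSHhigh 2-week replicate 1 was at 1.82 CPM, with 0.885.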

How the results depend on the processing

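Between the strains in tumors 2 members were called, but 1 with library sizes only, with limma-voom, with a filter of CPM over 1 in 3 libraries or in a single fit over all libraries, and 0 in a single fit over the 12-week libraries. Leaving out each library gave 0 to 2. In non-tumor colon the number was 0, and 1 with DESeq2. For tumor against non-tumor colon of BF BSHhigh mice the number was 4, and 2 to 4 when each library was left out, with 2 without non-tumor replicate 4 and without tumor replicate c. Over all genes, the tumor comparison called 73 genes, against 534 with DESeq2, 41 with limma-voom, 320 with no filter on low counts, 578 in the fit over all libraries and 510 in that over the 12-week libraries. The difference between tissues called 161, against 386 with DESeq2, 0 with limma-voom and 263 in the fit over all libraries. After 2 weeks 1 gene was called, against 27 with DESeq2, 5 with no filter on low counts and 2 in the fit over all libraries. Library sizes alone moved the median of all genes for 12-week against 2-week colon from 0.01 to 0.27. As each library was left out, the members' median ran from 0.20 to 0.70 in tumors, 0.18 to 0.77 after 2 weeks, 0.50 to 1.41 for BF BSHhigh tumor against non-tumor colon and −0.52 to 0.19 for the difference. Of 1176 log2 fold changes of single members, 1164 moved by less than the spread between replicates, 12 moved by more, and 0 of the called ones changed sign. That spread is the SD of single libraries within groups, up to 1.17 for Plet1, and refits without 1 library share nearly all data. The bound is therefore loose. Plet1 in BF BSHhigh tumor against non-tumor colon counts as within it, though it moved from 0.88 to 0.07 without tumor replicate a. Of 48 group means, 7 moved by more than an SD on library sizes only, and by Spearman's rho 5 of the 16 genes most alike were again in the top 2. The labels do not say whether replicate numbers pair the libraries. Same-numbered libraries correlated at −0.14 to 0.16 between the non-tumor groups, against −0.23 to 0.20 for different numbers. Between the 2-week groups the values were −0.10 to 0.26 and −0.26 to 0.21. Between BF BSHlow non-tumor colon and tumors they were −0.08 to 0.16 and −0.14 to 0.08. There 0.16 and 0.11, both of same-numbered libraries, were the highest. Pairing is therefore neither shown nor excluded. With a replicate block 0, 0 and 4 members were called in non-tumor colon, after 2 weeks and for BF BSHlow tumor against non-tumor colon. The causes were not tested.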
